A study of Mus musculus with 8 samples.

Results

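Interferon-stimulated genes other than the IFITM family were followed across 8 RNA-seq libraries of mouse CD4+ effector T cells. The set held 9 genes chosen by name, Irf1, Irf7, Isg15, Ifit1, Ifit3, Gbp2, Oasl2, Bst2 and Ly6a, out of 37411 genes in the count table, and all 9 passed the filter on low counts that left 10000 genes for testing. In the main test no gene of the set differed by tissue, by hairpin or by host. Bst2 was higher with the hairpin against Mdr1 in 4 of 4 matched library pairs. In 1 of these pairs the target gene, on few counts, goes against the hairpin labels. Ifit3 was lower in small intestine than in spleen in 4 of 4 pairs. Each was without overlap between the groups of 4 libraries, and neither passed. Among all tested genes, 1.45% were likewise without overlap in the direction of Bst2 by hairpin, and 4.68% in that of Ifit3 by tissue. For both genes, the nearest libraries of the opposite groups had intervals of counting error that overlapped. For Ifit3 these held only 15 counts (small intestine) and 13 counts (spleen). Their order rests on scaled library sizes. By unscaled total counts that order turns, and then neither the 4 of 4 nor the lack of overlap holds for Ifit3. Isg15 had a profile close to that of Bst2, although 20 genes were nearer to Bst2. Both lacked any count in the same library, which weighs heavily in that likeness.

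The libraries came from about 10000 sorted congenic CD4+ T cells each, recovered 6 weeks after transfer into immunodeficient Rag1-/- hosts on the C57BL/6 background. Cells were taken from the small intestine lamina propria or from the spleen, and carried either the shMdr1 hairpin, directed against the xenobiotic transporter Mdr1 (gene Abcb1a), or the control hairpin shCD8, both delivered by the LMPd retrovirus. Hosts were Asbt+/+ or Asbt-/-, Asbt being the ileal bile acid transporter encoded by Slc10a2. Each of the 8 combinations of tissue, hairpin and host had 1 library, so every factor compared 4 libraries with 4, and no combination was replicated. All groups shared the Rag1-/- host, which lacks its own T and B cells, and the host genotype applied to the animal and not to the transferred cells. The hairpin was read from the sample titles, because the virus label names shMdr1 for all 8. Nothing in the labels says that tissues or groups came from separate animals, so p-values measure only the spread between these libraries, which may in part be technical. CD4 T cell markers were present throughout, with 10 of 10 detected in every library and a summed level of 4920 to 9563 CPM (counts per 1000000 scaled library counts).

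Interferons are secreted proteins that bind surface receptors and act through JAK kinases and STAT transcription factors. Type I interferons assemble a complex that includes Stat2 and Irf9 and binds the interferon-stimulated response element, whereas interferon gamma, a main product of activated CD4+ T cells, acts chiefly through the gamma-activated site. The induced genes encode transcription factors that extend the response, proteins that hinder viral replication, GTPases that act against intracellular microbes, and surface proteins. T cells both respond to interferons and, in inflamed intestine, produce them.

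RefSeq promoter windows, from 250 bases before to 50 bases after the annotated start in build GRCm38.p6, were found for 8 of the 9 genes. The interferon-stimulated response element core, searched as 2 copies of GAAA separated by any 2 bases on either strand (2 copies of TTTC on the other), was present in 5 of these 8 genes and in 3.44% of 32851 windows of the same length. The gamma-activated site core TTCNNNGAA, which reads the same on both strands, was present in 2 of the 8 genes and in 8.3% of all windows. The 160 bases before the start are shown for Isg15 and Bst2, whose profiles lay close together, for Ifit1 and Ifit3, neighbours of 1 family that differed, and for the first window of Irf1, with every motif match in capitals.
Isg15: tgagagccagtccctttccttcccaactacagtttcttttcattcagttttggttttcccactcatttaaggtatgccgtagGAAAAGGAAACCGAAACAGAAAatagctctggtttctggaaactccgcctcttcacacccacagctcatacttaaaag
Bst2: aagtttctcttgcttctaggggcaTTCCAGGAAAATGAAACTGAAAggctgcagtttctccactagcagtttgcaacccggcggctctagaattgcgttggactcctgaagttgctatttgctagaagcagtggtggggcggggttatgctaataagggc
Ifit1: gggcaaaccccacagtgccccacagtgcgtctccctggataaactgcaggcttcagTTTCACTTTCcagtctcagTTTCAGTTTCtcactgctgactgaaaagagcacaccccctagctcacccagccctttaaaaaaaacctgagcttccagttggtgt
Ifit3: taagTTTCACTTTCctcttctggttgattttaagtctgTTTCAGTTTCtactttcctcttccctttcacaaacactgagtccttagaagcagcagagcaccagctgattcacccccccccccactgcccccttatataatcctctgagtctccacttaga
Irf1: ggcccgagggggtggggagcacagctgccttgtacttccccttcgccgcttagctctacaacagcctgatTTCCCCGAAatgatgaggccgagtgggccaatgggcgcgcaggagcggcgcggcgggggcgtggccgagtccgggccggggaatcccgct
The stretches lie at chr4:156200819-156200978 (minus strand), chr8:71537473-71537632 (minus strand), chr19:34640729-34640888, chr19:34583369-34583528 and chr11:53769854-53770013 (plus strand). In Isg15, 3 overlapping response element cores ran from 78 to 57 bases before the start. In Bst2, 2 overlapping cores ran from 130 to 115 bases before the start, and a gamma-activated site core at 136 to 128 overlapped them. Ifit1 and Ifit3 each had 2 separate response element cores on the minus strand, Irf1 had a gamma-activated site core only, and Gbp2 had 1 response element core 59 to 50 bases before its start. Neither motif was found in the windows of Irf7 and Oasl2. A match describes these letters only. The counts themselves were made on build mm9, so the coordinates belong to the sequences and not to the counting.

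Total counts per library ranged from 1685225 to 2767105. The small intestine shCD8 Asbt+/+ library stood apart, with 8456 genes detected against 11345 to 13184 in the others. It lacked any count for 54 of the 3201 genes that reached 20 CPM throughout the remaining 7 libraries, and the same check found 0 such genes elsewhere. The spleen shMdr1 Asbt-/- library had 26.8% of its counts in mitochondrial genes and 3.69% in haemoglobin genes. Mitochondrial shares were 18.3% in the small intestine shMdr1 Asbt+/+ library, 17.6% in the spleen shCD8 Asbt-/- library and 6.63% to 8.62% in the rest. Abcb1a, the target of shMdr1, was lower with the hairpin in 3 of 4 pairs, while in the small intestine Asbt+/+ pair the library labelled shMdr1 had 14.7 CPM and the library labelled shCD8 8.24 CPM. A single count is 0.639 CPM in the first of these libraries and 0.392 CPM in the second. Both levels thus rest on few counts, and their difference within the pair was not tested. With that limit, every hairpin direction in that pair rests on labels that the target gene goes against. Both libraries are named by their labels throughout. Neutrophil markers summed to 833 to 7411 CPM in spleen and 10.6 to 192 CPM in small intestine. Macrophage and dendritic cell markers summed to 163 to 478 CPM in spleen and 489 to 1092 CPM in small intestine. RNA of other cells was thus present in amounts that differed by tissue, and its part in the results was not tested.

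Levels are given as CPM of the library size scaled by the TMM method, first for the 4 small intestine and then for the 4 spleen libraries. Where a library had no count, the level could have been as high as 3 counts, which is 1.18 CPM in the small intestine shCD8 Asbt+/+ library and 1.92 CPM in the small intestine shMdr1 Asbt+/+ library. That limit and all counting intervals are for 95% confidence and cover counting error only. In sorted pools, fewer cells expressing a gene and less RNA per cell cannot be told apart.

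**Figure D1:**
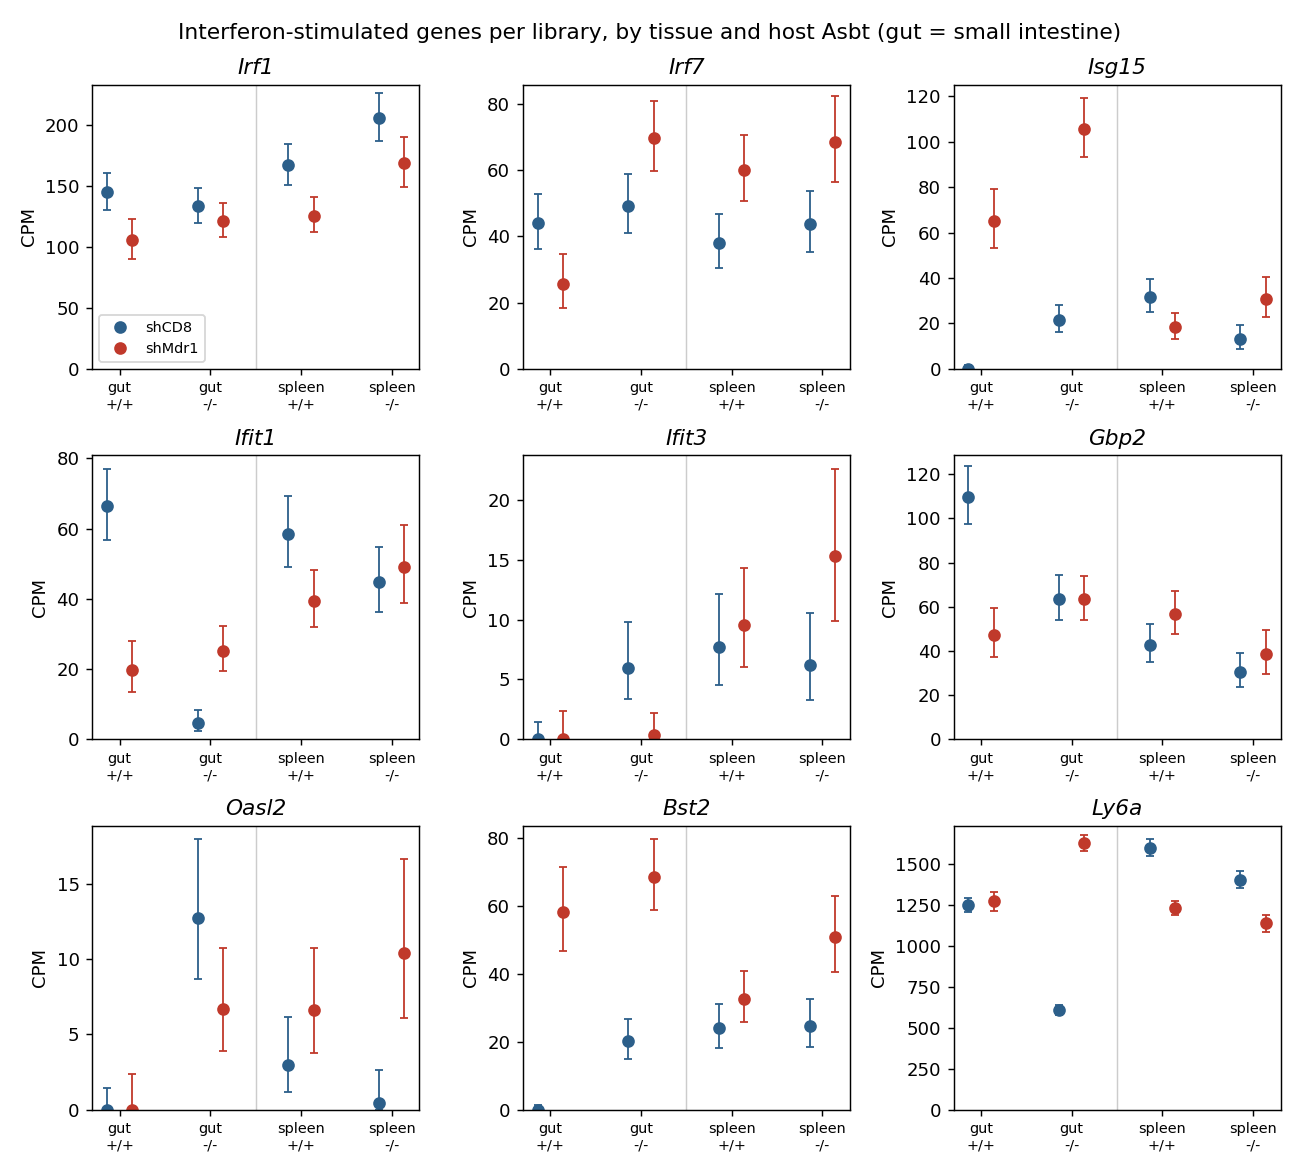
Level of each gene in CPM (vertical axis, linear, starting at 0) in the 8 libraries, grouped on the horizontal axis by tissue and host, with blue for shCD8 and red for shMdr1. Bars are 95% Poisson intervals of the count; Bst2 with shMdr1 (32.7 to 68.6 CPM) lies above Bst2 with shCD8 (0 to 24.8 CPM) in all 4 pairs.

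Irf1 and Irf7 are transcription factors that spread the interferon response, Irf1 chiefly downstream of interferon gamma and Irf7 as an amplifier of type I interferon production. In the small intestine, Irf1 was at 144 CPM (shCD8) and 105 CPM (shMdr1) from Asbt+/+ hosts, and at 133 and 121 CPM from Asbt-/- hosts. In the spleen the same order gave 167, 126, 205 and 168 CPM. Irf1 was thus present in every library, varied 1.95-fold from lowest to highest, and was lower with shMdr1 in 4 of 4 pairs, or in 3 of 3 without the small intestine Asbt+/+ pair, although the groups overlapped. Irf7 was at 44.0 and 25.6 CPM in the small intestine of Asbt+/+ hosts and at 49.2 and 69.8 CPM in that of Asbt-/- hosts. In the spleen Irf7 was at 38.1 and 60.1 CPM from Asbt+/+ hosts and at 43.8 and 68.6 CPM from Asbt-/- hosts. It was higher with shMdr1 in 3 of 4 pairs, the exception being the small intestine Asbt+/+ pair, whose labels Abcb1a goes against, and higher in Asbt-/- hosts in 4 of 4 pairs. By total counts without TMM scaling, the spleen shMdr1 pair turned by host, with 112 of 1821772 counts (Asbt-/-) against 145 of 2250491 (Asbt+/+).

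Isg15 is a ubiquitin-like protein that is joined to other proteins during antiviral responses, and Bst2 (tetherin) holds budding virus particles at the cell surface. Isg15 had no count in the small intestine shCD8 Asbt+/+ library, against 65.2 CPM in its shMdr1 partner. In the small intestine of Asbt-/- hosts it was at 21.4 CPM with shCD8 and 105.7 CPM with shMdr1. In the spleen it was at 31.7, 18.2, 13.3 and 30.6 CPM in the same order as above. The 2 small intestine shMdr1 libraries were therefore the highest of the 8, and the spleen Asbt+/+ pair went the other way. Bst2 likewise had no count in the small intestine shCD8 Asbt+/+ library and was at 58.1 CPM in its partner. It was at 20.3 and 68.6 CPM in the small intestine of Asbt-/- hosts. The spleen gave 24.0 and 32.7 CPM from Asbt+/+ hosts and 24.8 and 50.8 CPM from Asbt-/- hosts. All 4 libraries labelled shMdr1 lay above all 4 labelled shCD8. In the small intestine Asbt+/+ pair that direction rests on the labels that Abcb1a goes against, and the other 3 pairs gave the same direction.

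Ifit1 and Ifit3 are tetratricopeptide proteins that bind foreign RNA or partner in doing so, and Oasl2 belongs to the oligoadenylate synthetase family that senses double-stranded RNA. Ifit1 was at 66.3 and 19.8 CPM in the small intestine of Asbt+/+ hosts and at 4.77 and 25.2 CPM in that of Asbt-/- hosts. Its spleen levels of 58.6, 39.3, 44.8 and 49.0 CPM spread less, and the lowest library of all was the small intestine shCD8 Asbt-/- one, with 12 counts. Ifit3 had no count in either small intestine Asbt+/+ library, and 15 counts (5.96 CPM) and 1 count (0.394 CPM) in the Asbt-/- ones. In the spleen it was at 7.70, 9.53, 6.19 and 15.3 CPM, so the highest small intestine library lay just under the lowest spleen library. Oasl2 also had no count in either small intestine Asbt+/+ library, and was at 12.7 and 6.70 CPM in the Asbt-/- ones. The spleen values of Oasl2 were 2.99, 6.63, 0.476 and 10.4 CPM. Ifit3 and Oasl2 had 95 and 90 counts over all libraries, so few of their differences could be resolved at this depth. Ifit1 and Ifit3 have close relatives, Ifit1bl1 and Ifit3b, with which they may share reads, and their values are uncertain to that extent.

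Gbp2 is a guanylate-binding protein, a GTPase induced above all by interferon gamma, and Ly6a (Sca-1) is a surface protein that rises on activated T cells and with interferon. Gbp2 was at 109.9 and 47.3 CPM in the small intestine of Asbt+/+ hosts and at 63.5 CPM in both libraries from Asbt-/- hosts. The spleen had 42.8, 56.7, 30.5 and 38.6 CPM, lower than the matched small intestine library in 3 of 4 pairs. Ly6a was at 1250 and 1270 CPM in the small intestine of Asbt+/+ hosts and at 610.0 and 1626 CPM in that of Asbt-/- hosts. The spleen had 1599, 1229, 1402 and 1137 CPM, so both the lowest and the highest level of Ly6a were in the small intestine of Asbt-/- hosts. Ly6a belongs to a family of similar genes, and reads may be shared within it.

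**Figure D2:**
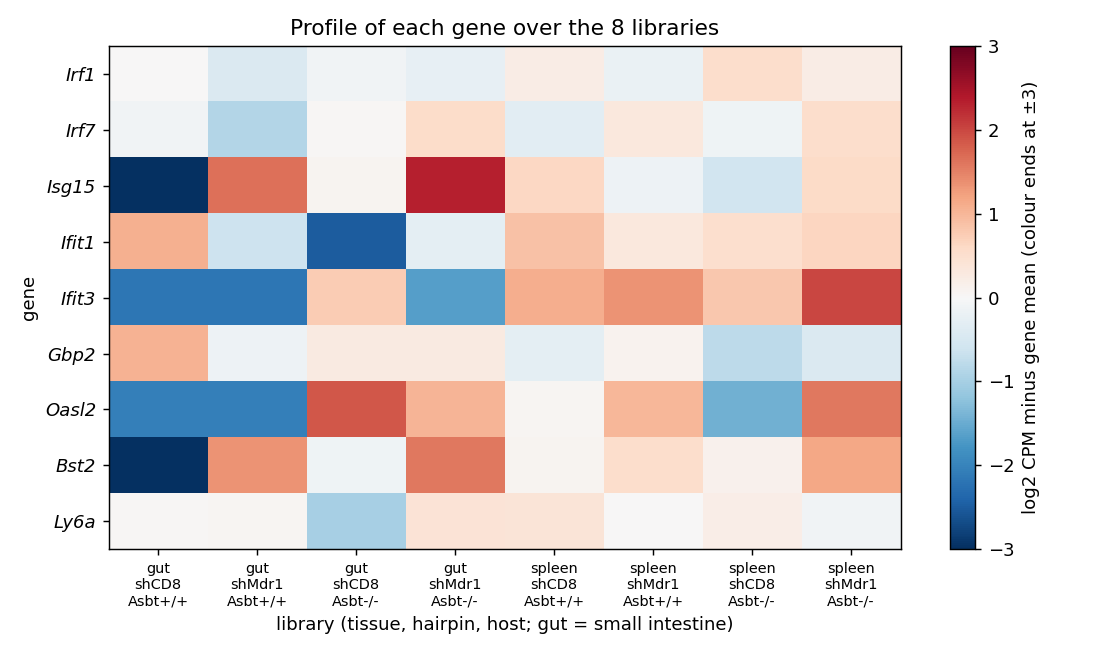
Log2 CPM of each gene (rows) minus its mean over the 8 libraries, with the libraries in columns by tissue, hairpin and host (red above, blue below the gene's mean, colours ending at ±3). Isg15 and Bst2 share the dark blue first column, where both had 0 counts, and the red shMdr1 small intestine columns, while Irf1 and Irf7 stay pale.

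The hairpin comparison asked whether these genes differed between T cells carrying shMdr1 and T cells carrying shCD8. Within the spleen the fitted log2 fold change of Abcb1a, the target, was -0.77 ± 0.75 (SE), with an unadjusted p of 0.337 by the edgeR test. The extent of Mdr1 loss is thus not settled by these counts. Bst2 averaged 52.6 ± 15.1 CPM with shMdr1 and 17.2 ± 11.7 CPM with shCD8 (SD, n = 4 libraries each), and 1.45% of all tested genes were likewise higher in all 4 shMdr1 libraries than in all 4 shCD8 libraries. None of the 9 genes was lower in all 4 shMdr1 libraries, against 1.34% of tested genes. Its fitted log2 fold change was 1.82 ± 0.92 (SE), with an adjusted p of 0.999 by the edgeR quasi-likelihood test. Isg15 averaged 54.9 ± 39.2 CPM and 16.6 ± 13.4 CPM (SD, n = 4 each), a log2 fold change of 1.56 ± 1.08 with groups that overlapped. Log2 fold changes were 0.30 ± 0.38 for Irf7, 0.17 ± 0.33 for Ly6a and 0.38 ± 1.66 for Oasl2. They were -0.32 ± 0.23 for Irf1, -0.22 ± 0.65 for Ifit1, -0.81 ± 1.48 for Ifit3 and -0.10 ± 0.37 for Gbp2. None of the 9 genes passed at an adjusted p of 0.05, against a background of 0% of 10000 tested genes, and none had an unadjusted p under 0.05, against 2.99% of the tested genes. The median of the 9 log2 fold changes was 0.17, beside 0.09 over all tested genes.

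**Figure D3:**
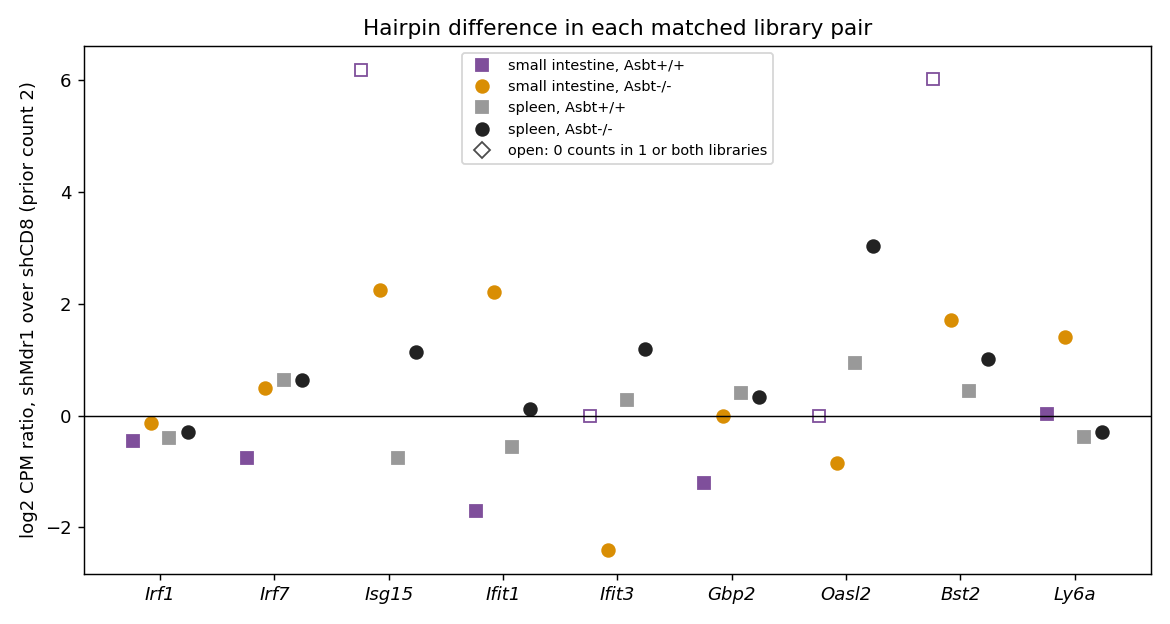
Log2 ratio of CPM, shMdr1 over shCD8 (prior count 2), for each gene on the horizontal axis and each of the 4 matched library pairs (squares Asbt+/+, circles Asbt-/-). Open symbols mark pairs in which a library had 0 counts, so that their height depends on the prior count; Bst2 lies above 0 in all 4 pairs and Irf1 below 0 in all 4.

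Leaving out the small intestine shCD8 Asbt+/+ library, where Bst2 had no count, all remaining Bst2 values with shMdr1 still lay above those with shCD8, as did those of 2.61% of the tested genes. Without that whole pair, Bst2 was at 20.3 to 24.8 CPM with shCD8 and 32.7 to 68.6 CPM with shMdr1, and the fitted log2 fold change was 1.09 (adjusted p = 0.832 by the edgeR test). Ratios of shMdr1 over shCD8 for Bst2 were 3.39 (95% counting interval 2.47 to 4.72) in the small intestine of Asbt-/- hosts and 2.05 (1.43 to 2.96) in the spleen of Asbt-/- hosts. In the spleen of Asbt+/+ hosts the ratio was 1.37 (0.958 to 1.96), an interval that includes no difference. For Isg15 the small intestine Asbt-/- pair gave 4.93 (3.67 to 6.73), the spleen Asbt-/- pair 2.30 (1.42 to 3.79) and the spleen Asbt+/+ pair 0.576 (0.387 to 0.847). In that same small intestine Asbt-/- pair, Ifit1 had a ratio of 5.30 (2.83 to 10.8), Ly6a 2.67 (2.51 to 2.83) and Irf7 1.42 (1.12 to 1.80). Ifit3 went the other way in it, at 0.0662 (0.00157 to 0.430), as did Oasl2 at 0.527 (0.275 to 0.979), and Gbp2 (0.999) and Irf1 (0.910) had intervals that included 1. These intervals compare the libraries and not the conditions.

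The small intestine shMdr1 Asbt-/- library, where Isg15, Bst2, Irf7 and Ly6a were at their highest, also held the most counts of 3 of the 7 listed plasmacytoid dendritic cell genes. Siglech was at 16.6 CPM, Ly6d at 13.8 CPM and Cox6a2 at 24.4 CPM there, against at most 3.18, 1.24 and 6.75 CPM in the other libraries. The summed level of the whole list was 107 to 262 CPM in small intestine and 11.0 to 39.4 CPM in spleen, was 152 CPM in that library, and consisted mostly of Ccr9, which gut-homing T cells also express. Of the other listed genes, Tcf4 was at 5.91 CPM in that library against 0.392 to 11.5 CPM in the others, Spib had no count there and 23.9 CPM in the small intestine shCD8 Asbt+/+ library, and Klk1 had no count in any library. Whether plasmacytoid dendritic cells were present in that library, and any part of theirs in the Isg15 and Bst2 values, was not tested.

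Within the small intestine, the fitted hairpin difference was 4.35 ± 1.56 for Isg15 and 3.98 ± 1.58 for Bst2 on the log2 scale. Their unadjusted p values by the edgeR test were 0.0275 and 0.0405, which 4.81% of tested genes also had under 0.05, and both adjusted p values were 0.785. No gene of the set and 0% of all tested genes passed. Both fold changes depend on the library without a count. The DESeq2 Wald test on the same counts called both, with an adjusted p of 0.0211 for Isg15 and 0.0396 for Bst2, among 0.26% of tested genes. Without the small intestine shCD8 Asbt+/+ library, a fit chosen after seeing that it stood apart, the edgeR test called 4 genes of the set among 8.57% of 9826 tested genes. These were Isg15 (2.30, adjusted p = 0.000331), Ifit1 (2.39, 0.00590), Bst2 (1.76, 0.0125) and Ly6a (1.41, 0.00941). That fit had 7 libraries and 1 residual degree of freedom, and its small intestine hairpin difference came from the single Asbt-/- pair, 1 library against 1. The spread behind these p-values came from the spleen libraries alone, so the small intestine libraries are assumed to vary like them. With DESeq2 on those libraries, where the same holds, Ly6a alone of the 9 passed (adjusted p = 0.000600, with 2.92% of tested genes called).

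In the spleen the hairpin difference was 0.74 ± 1.22 for Bst2 and 0.19 ± 1.28 for Isg15, and none of the 9 genes passed (0% of tested genes), nor had an unadjusted p under 0.05, against 0.62% of tested genes. The hairpin difference was larger in small intestine than in spleen by 4.16 ± 2.02 for Isg15 and 3.24 ± 2.00 for Bst2 on the log2 scale. Neither interaction passed the edgeR test (adjusted p = 1 for each, 0% of tested genes called), and none of the 9 genes had an unadjusted p under 0.05, against 1.7% of tested genes. The dependence of the hairpin difference on the host was 2.21 ± 1.17 for Ifit1, whose ratio was 0.299 in the small intestine Asbt+/+ pair and 5.30 in the Asbt-/- pair, and did not pass the edgeR test either (adjusted p = 1, 0% called). The first of those ratios takes its direction from the labels that Abcb1a goes against. No gene of the set had an unadjusted p under 0.05 for it, against 1.19% of tested genes.

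The tissue comparison asked how the same genes differed between effector cells of the small intestine and of the spleen. Ifit3 averaged 1.59 ± 2.92 CPM in small intestine and 9.68 ± 3.99 CPM in spleen (SD, n = 4 each), without overlap, as did 4.68% of tested genes in that direction. Its log2 fold change was -3.76 ± 1.72, with an adjusted p of 0.591 by the edgeR test. By total counts without TMM scaling, the shCD8 Asbt-/- pair turned for Ifit3 and the groups overlapped. That pair held 15 of 2375872 counts in small intestine and 13 of 2100582 in spleen. Gbp2 was higher in small intestine, at 71.0 ± 27.0 against 42.2 ± 11.0 CPM (SD, n = 4 each), a log2 fold change of 0.75 ± 0.37 (adjusted p = 0.637 by the edgeR test). Irf1 was lower in small intestine in 4 of 4 pairs, with a log2 fold change of -0.39 ± 0.23 and overlapping groups. Log2 fold changes of the others were -0.16 ± 0.38 for Irf7, 0.28 ± 1.13 for Isg15, -0.89 ± 0.63 for Ifit1, -1.41 ± 2.10 for Oasl2, -0.45 ± 0.91 for Bst2 and -0.21 ± 0.32 for Ly6a. None of the 9 genes passed, against 0.62% of tested genes, and none had an unadjusted p under 0.05, against 8.45% of tested genes. Without the small intestine shCD8 Asbt+/+ library, Ifit1 and Ifit3 were lower in every small intestine library than in every spleen library, as were 6.56% of tested genes. For Ifit3 that again rests on the TMM scaling.

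**Figure D4:**
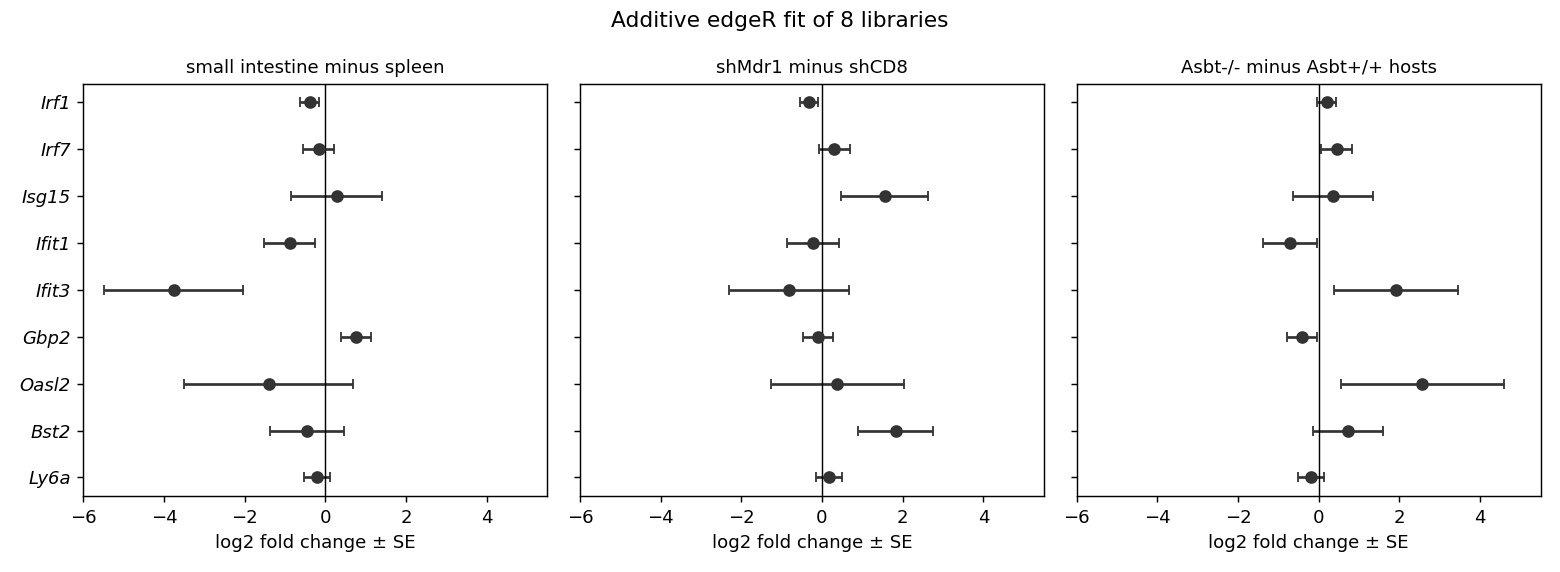
Log2 fold change (horizontal axis) with its standard error as bars for the 9 genes under the additive fit, for tissue, hairpin and host. No gene passed in any panel, and the widest bars belong to Oasl2 and Ifit3, the genes with the fewest counts.

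The host comparison asked whether loss of the ileal bile acid transporter in the recipient changed these genes. Irf7 and Bst2 were higher in Asbt-/- hosts in 4 of 4 pairs, with log2 fold changes of 0.45 ± 0.38 and 0.73 ± 0.87. In the spleen shCD8 pair Bst2 was nearly even, with 52 against 56 counts and a log2 ratio of 0.0469. By total counts without TMM scaling, that pair turned for Bst2, and the spleen shMdr1 pair turned for Irf7 (112 against 145 counts). For neither gene does the 4 of 4 hold without the scaling. The share of tested genes with the same direction in 4 of 4 pairs was not computed, here or in the other comparisons. Log2 fold changes were 0.20 ± 0.23 for Irf1, 0.36 ± 1.00 for Isg15, 1.91 ± 1.54 for Ifit3 and 2.57 ± 2.01 for Oasl2. They were -0.71 ± 0.66 for Ifit1, -0.41 ± 0.37 for Gbp2 and -0.18 ± 0.32 for Ly6a. None passed (adjusted p = 0.996 for each by the edgeR test, 0% of tested genes called), and none had an unadjusted p under 0.05, against 2.71% of tested genes. The host groups overlapped for each of the 9, whereas 1.78% of tested genes were higher and 0.93% lower in all 4 Asbt-/- libraries. In the small intestine shMdr1 pair all 9 genes were higher from the Asbt-/- host, as were 50.3% of tested genes, although Ifit3 there rests on 1 count against 0. In the spleen shCD8 pair 3 of the 9 were higher, beside 48.8% of tested genes. The small intestine shCD8 pair had 5 of the 9 higher (61.7% of tested genes) and the spleen shMdr1 pair 7 (48.6%). The numbers for the spleen pairs rest on the TMM scaling too.

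Within the small intestine, Oasl2 differed by host by 7.49 ± 2.71 on the log2 scale, 2 libraries without a count against 32 and 17 counts. Its unadjusted p by the edgeR test was 0.0335, with 7.43% of tested genes under 0.05, and the adjusted p was 0.624, with 0% of tested genes called. The dependence of its host difference on tissue was 8.19 ± 3.30 (adjusted p = 0.937 by the edgeR test, 0% called), and of the 9 genes Oasl2 alone had an unadjusted p under 0.05 (0.0487), as did 4.31% of tested genes. Without the small intestine shCD8 Asbt+/+ library, Irf7 was called higher in Asbt-/- hosts within the small intestine (1.44, adjusted p = 0.0392), in a fit that called 10.5% of tested genes. That difference came from the single shMdr1 pair, 1 library against 1, again with a spread taken from the spleen libraries alone. The DESeq2 Wald test called none of the 9 by host within the small intestine, with 0.65% of tested genes called on all libraries and 0.896% without that library. By host within the spleen none of the 9 passed the edgeR test (0% called), nor had an unadjusted p under 0.05, against 1.02% of tested genes.

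Of the wider pathway, 110 genes in 6 lists were examined. Among 8 interferon ligands only Ifng, which encodes interferon gamma, could be tested. It was at 375, 926, 1105 and 642 CPM in small intestine and 316, 589, 417 and 216 CPM in spleen, a log2 fold change of 0.99 ± 0.40 by tissue that did not pass (adjusted p = 0.534 by the edgeR test). All 4 small intestine libraries had more Ifng than their matched spleen library. Of 6 receptors, 5 were tested and none passed by tissue, against 0.62% of all tested genes. Ifngr1, the ligand-binding chain of the interferon gamma receptor, was at 224 to 375 CPM in small intestine and 145 to 176 CPM in spleen, without overlap, as were 3.39% of tested genes in that direction (0.97 ± 0.23, adjusted p = 0.135 by the edgeR test). Another 1 of the 5 tested receptors was without overlap in the opposite direction, as were 4.68% of tested genes. Ifnar1, a chain of the type I receptor, had a tissue log2 fold change of 0.04 ± 0.56.

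None of 9 tested signal transducers passed by tissue, against 0.62% of all tested genes. The tissue log2 fold change was -0.05 ± 0.55 for Stat2 and -0.66 ± 0.48 for Irf9, both partners in the type I response. Of the feedback inhibitors, 7 of 8 were tested and none passed. Socs1, which blocks JAK kinases, had -0.29 ± 0.58 by tissue, and Usp18, which removes Isg15 from proteins, was at most 8.58 CPM and was not tested.

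Among 46 other antiviral genes induced by type I interferon, 37 were tested, none passed by tissue and 13 had a log2 fold change above 0. Their median was -0.58, beside -0.17 over all tested genes, of which 41.2% were above 0. Among 32 genes typical of interferon gamma, 30 were tested, 15 were above 0 and the median was 0.08. The gene of this list that passed was Cxcl9, a chemokine that draws activated T cells. Of all tested genes, 0.62% passed by tissue. Cxcl9 was at 70.2, 54.9, 29.8 and 17.0 CPM in small intestine and at most 0.613 CPM in spleen (7.13 ± 0.99, adjusted p = 0.00969 by the edgeR test). Macrophages and dendritic cells are known as main producers of Cxcl9. The sum of their markers was higher in the small intestine libraries, as given above. Not every marker was, since 5 of the 7 tested had a tissue log2 fold change above 0. The part of these cells in the Cxcl9 result was not tested. By hairpin and by host no gene of any of the 6 lists passed (0% of all tested genes in each).

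**Figure D5:**
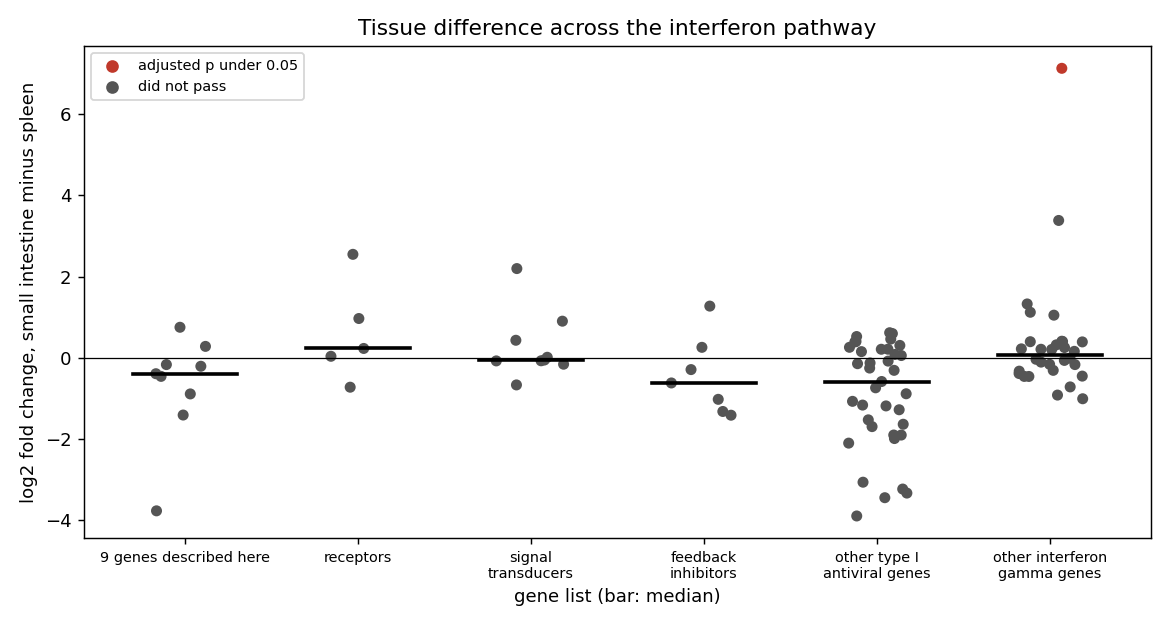
Log2 fold change between small intestine and spleen (vertical axis) for each tested gene of the 9 and of 5 pathway lists, with the list median as a black bar and genes that passed in red. The median lies at -0.39 for the 9 genes and at -0.58 for the other type I antiviral genes, and Cxcl9 at 7.13 is the gene in red.

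Profiles over the 8 libraries were compared by the root mean square difference of log2 CPM, each gene centred on its own mean. Isg15 and Bst2 were 0.54 apart, and no other of 5063 genes with a mean of at least 20 CPM was nearer to Isg15, whereas 20 were nearer to Bst2. Both share the library in which they had no count, which weighs heavily in this distance. Outside the set, Map3k2 (0.55) and Fndc3a (0.58) came nearest to Isg15, and Rgs3 (0.33) and Mrpl49 (0.45) to Bst2. Irf1 was nearest to Atp6ap2 (0.12) and Stk4 (0.15), and Irf7 to Rab35 (0.10) and Herc2 (0.21). Ifit1 was nearest to Cdan1 (0.34) and Ankle2 (0.43), Ifit3 to Pold1 (0.55) and 1110038F14Rik (0.74), and Oasl2 to Stmn1 (0.73) and Rnf115 (0.83). Gbp2 lay nearest to Eif3d (0.18) and Dpf2 (0.19), and Ly6a to Emc6 (0.14) and Psma2 (0.14). None of these 18 nearest genes is on the pathway lists.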

How the data were processed

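Gene counts from 8 RNA-seq libraries (SMART-Seq v4 cDNA from total RNA, NEBNext Ultra II libraries, per the labels' protocols) were used as the authors deposited them, as raw counts per gene. TopHat, HTSeq, DESeq2 and build mm9 are named in the submitters' processing notes, with versions and strand setting not given in the sources used here. Of 37411 genes, 10000 passed filterByExpr and held 99.52% of counts. Counts were scaled by TMM and tested with edgeR 4.0.16 (R 4.3.3) quasi-likelihood F tests, with Benjamini-Hochberg adjustment over all tested genes at 0.05. The additive fit of tissue, hairpin and host had 4 residual degrees of freedom. Fits by tissue (2) and with a hairpin by host term (3) gave the other comparisons. SE is the log2 fold change over the root of F. Log2 CPM used a prior count of 2. Tested on simulated counts, it gave the right direction for the changed genes it called but missed many of them, most at the smaller change. DESeq2 1.42.0 and limma-voom 3.58.1 were alternatives. The 9 genes, the pathway lists and the tests were chosen with earlier results of these data known. All 9 genes were named in each comparison. From each list, up to 4 genes that passed were named by smallest p, and Ifng, Ifngr1, Ifnar1, Stat2, Irf9, Socs1 and Usp18 always. Another gene of that rule is not reported here. For each gene of the set, the 2 tested genes of nearest profile were named.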

Additional observations from a re-analysis of the deposited data

Results flagged for a closer look

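In groups of 4 libraries, a library was singled out where its gap to the next, divided by the range of the group, exceeded 0.829. Of 54 groups examined, 2 did, and chance gives about 1 in 20. Ifit3 in the small intestine had a ratio of 0.934, because the shCD8 Asbt-/- library held 15 counts and the other 3 held 0 or 1. Ly6a among Asbt+/+ hosts had a ratio of 0.890, with the spleen shCD8 library at 1599 CPM above 1229 to 1270 CPM in the other 3.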

How the results depend on the processing

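No gene of the set was called by tissue, hairpin or host under any alternative, including DESeq2 size factors, no filter on low counts, the DESeq2 Wald test, limma-voom, no covariates and a block for matched library pairs. Leaving out each library in turn left 0 of the 9 called, while all genes called ranged from 11 to 137 by tissue and from 0 to 4 by host. The labels give no replicate numbers that pair the libraries, and the block used the design alone. Within the small intestine the number of the 9 called by hairpin was 0 in the main test (0% of tested genes) and 2 with DESeq2 (0.26%). Fits without the shCD8 Asbt+/+ library compared 1 library with 1 there, by hairpin and by host. Their results are given above, beside the share of all tested genes. Those fits were chosen after seeing the data. Directions of differences that had not passed also turned. Without both small intestine Asbt+/+ libraries the log2 fold change was 0.10 for Irf7, 1.49 for Oasl2 and 0.12 for Bst2 by tissue, 0.49 for Ifit1 and 0.24 for Gbp2 by hairpin, and -0.45 for Isg15 and -0.13 for Oasl2 by host. Without the small intestine shCD8 Asbt+/+ and spleen shMdr1 Asbt-/- libraries together, a choice made after seeing the data, it was 0.23 for Oasl2 and 0.28 for Bst2 by tissue, 0.76 for Ifit1 and 0.20 for Gbp2 by hairpin, and -0.22 for Isg15 and 0.0792 for Ly6a by host. Without covariates it was 0.15 for Bst2 by tissue and 0.34 for Ifit3 by hairpin, which limma-voom put at 0.30. Leaving out 1 library at a time, tissue values ranged from -0.36 to 0.11 for Irf7, -0.54 to 1.18 for Isg15, -3.33 to 0.12 for Oasl2, -1.24 to 0.26 for Bst2 and -0.53 to 0.0859 for Ly6a. Hairpin values ranged from -0.75 to 0.53 for Ifit1, -2.06 to 0.89 for Ifit3, -0.28 to 0.20 for Gbp2, -0.76 to 2.41 for Oasl2 and -0.14 to 0.36 for Ly6a. Host values ranged from -0.19 to 1.94 for Isg15 and -0.51 to 0.0879 for Ly6a. The cause of these changes was not tested. Bst2 stayed higher with shMdr1 under all 17 alternatives, from 1.13 to 2.68 when 1 library was left out. The hairpin direction also held under all 17 for Irf1, Irf7 and Isg15. These alternatives reuse the same 8 libraries and are not independent of each other.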
